A study of Prunus sibirica with 30 samples.

Results

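The transcripts described here encode the proteins of the large (60S) subunit of the cytosolic ribosome in the flowers of Siberian apricot (Prunus sibirica). They were all complete genes of the deposited table whose Swiss-Prot name began with 60S ribosomal protein or 60S acidic ribosomal protein, which gave 43 of 143 genes. Of these, 39 were core proteins and 4 were acidic stalk proteins (P0, P1, P2 and P3-1), and 0 ubiquitin-L40 fusions met the rule. The 43 genes carried 38 distinct names on 8 chromosomes, because 10 of them formed 5 pairs of same-name copies (L23a and L23A were matched ignoring case).

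RNA was sequenced from clone 453 (CR), whose frost resistance the labels call strong, and from clone 371 (NC), whose frost resistance they call weak. Blooming flowers of both clones were taken after 0 h, 15 min, 30 min, 1 h and 2 h at -4 °C, with 3 libraries in each of 10 groups. The sample labels name the pistil, whereas the extraction text speaks of flowers and flower buds. Each kind of frost resistance was represented by 1 clone, so resistance cannot be told apart from any other difference between these clones. No other temperature was used, so an effect of cold and an effect of time after picking cannot be told apart. Nothing says that replicate libraries stem from different trees, and p-values then cover only the scatter of these libraries, part of which may be technical. The comparisons ask how these genes respond to frost in the open flower and how that differs between a hardy and a tender clone.

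Ribosomes join amino acids into protein, and the large subunit holds the catalytic centre, the tunnel through which the new chain leaves, and a flexible stalk that recruits translation factors. The stalk is built on P0, to which acidic proteins of the P1 and P2 type bind in pairs, and P3 is a relative of these found in plants. Plants usually carry several gene copies for each ribosomal protein, and ribosomal protein transcripts are among the most abundant in growing and dividing tissues, including flowers.

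Levels are given as FPKM, fragments per kilobase of gene scaled by library size, as the authors deposited them. The reads behind each value could be recovered from the steps between values: a 60S gene rested on 3064 to 38994 reads in a library, so its counting error was at most 1.81%, and all 43 members added up to 339694 to 978369 reads in a library. The table held the most abundant genes, with mean FPKM between 594 and 3835, so copies of lower abundance were not analysed here. A gene low in 1 clone could be in the table through its values in the other clone alone. For genes near the lower edge a clone difference can thus be partly selected, and its p-value does not account for that. The 60S genes took 25.6% to 27.6% of the reads of the table in the 15 CR libraries and 17.9% to 24.2% in the 15 NC libraries. Replicate 1 of CR at 0 h stood apart, with the highest value for 41 of 43 members, and the lowest value of all 43 members lay in replicate 2 or 3 of NC at 2 h. Counts that rest on these libraries, and the named genes whose call they decide, are given with and without them. The share of all genes called without a library is not given. Such counts therefore do not show whether a drop was particular to the 60S genes. Because FPKM depend on the scaling of each library, some library-wide features are given beside the results. The level of ART3, named by Swiss-Prot for a transcript antisense to ribosomal RNA, was 308 to 1103 FPKM in CR (median 600.2) and 838 to 2542 FPKM in NC (median 1305). The summed level of 8 green-tissue genes was 8357 to 16306 FPKM in CR (median 11213) and 5928 to 13428 FPKM in NC (median 10072), and the 1 pollen or anther gene of the table ranged over 656 to 923 FPKM in CR and 402 to 738 FPKM in NC. The table held 0 of the pistil markers looked for, so the labelled tissue could not be checked. The part of these features in the differences below was not tested.

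Across the 30 libraries the mean level of a 60S gene lay between 596 and 2330 FPKM, with a median of 899.7 FPKM against 873 FPKM for all 143 genes. The most abundant member was the chromosome 5 copy of L37a, a small zinc-binding protein of the core (PaF106G0500019112.01, chromosome 5, 5331423 to 5332766), with 2072 to 4249 FPKM in CR and 1251 to 2244 FPKM in NC. Next came L19-3 (PaF106G0800029346.01, chromosome 8, 23568742 to 23570478), whose protein takes part in a bridge to the small subunit, with a mean of 2204 FPKM. The stalk gene P2 followed with 1465 FPKM. At the lower edge stood the chromosome 8 copy of L22-2, with 596 FPKM. That value was just inside the range of the table. The ratio of the highest to the lowest library was 3.00 for the median member, 2.17 for L3, where it was smallest, and 5.34 for P3-1, where it was largest.

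**Figure D1:**
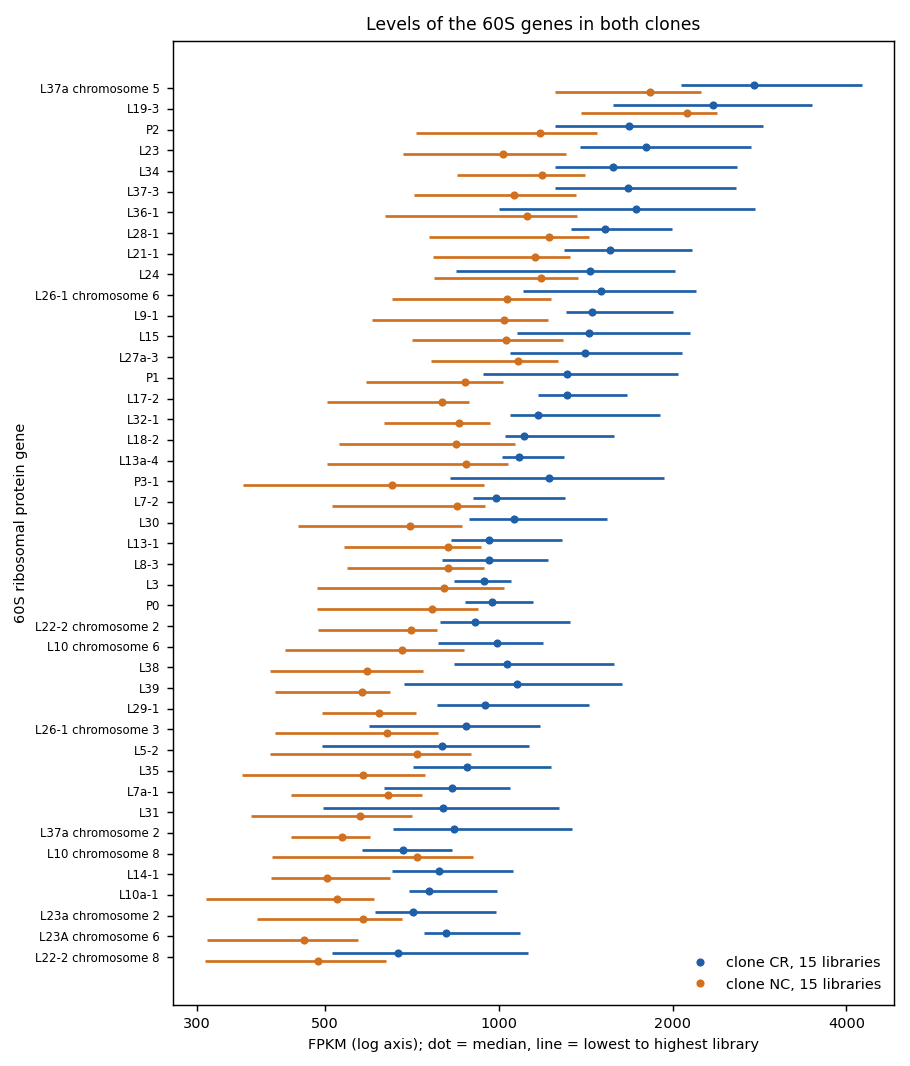
FPKM of each 60S ribosomal protein gene in both clones, on a log axis, with genes ordered by their mean over 30 libraries; dots are medians of 15 libraries and lines run between the lowest and highest library, CR above NC. Member means lie between 596 and 2330 FPKM, and for 13 genes all 15 CR libraries lie above all 15 NC libraries.

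CR flowers held more 60S transcripts than NC flowers. The median FPKM of the 43 genes within a library ranged over 935 to 1538 in CR, with a median of 1053, and over 504 to 922 in NC, with a median of 796. Every CR library was above every NC library by this measure. Averaged over the 5 times, 42 of 43 members were higher in CR and 0 were lower (limma on log2(FPKM + 1), Benjamini-Hochberg adjusted p under 0.05), with a median difference of 0.53 on the log2 scale. Over all 143 genes 81.8% were called higher and the median difference was 0.42, so a high share of such calls was a feature of the whole table. For 13 members all 15 CR libraries exceeded all 15 NC libraries, against 24 genes (16.8%) of the table. Such differences in bulk tissue cannot separate fewer cells of a kind from less RNA per cell.

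The size of the clone difference depended on time. At 0 h 40 members were higher in CR (median difference 0.72), where 70.6% of all genes were called higher. At 15 min 8 members were higher (0.21, with 11.2% of all genes). At 30 min the count was 27 (0.38, 39.9%), at 1 h it was 29 (0.40, 41.3%), and at 2 h all 43 members were higher (1.00, 84.6%). No member was called lower in CR at any single time in the values as deposited. The difference was negative, without a call, for 4 members at 15 min, 2 at 30 min and 1 at 1 h. Centred on the median of all genes, 26 members were higher and 6 lower at 0 h (37.1% and 27.3% of all genes), the 6 being L10 on chromosome 8, L3, L5-2, P0, L7-2 and L8-3. By the same centring 8 were higher and 2 lower at 15 min (10.5% and 13.3%), 18 and 2 at 30 min (23.8% and 16.1%), 16 and 2 at 1 h (21% and 16.8%), and 31 and 1 at 2 h (39.2% and 23.8%). The 3 members not called at 0 h, which were named after their values were seen, were L3, L5-2 and the chromosome 8 copy of L10. The 8 called at 15 min were L17-2, L23A on chromosome 6, L38, L39, L29-1, L14-1, L28-1 and L10a-1. That smaller count rested on single libraries: without CR replicate 1 at 15 min, or without NC replicate 3 at 15 min, 1 member was called. The shares of all genes in these 15 min fits are not given.

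**Figure D2:**
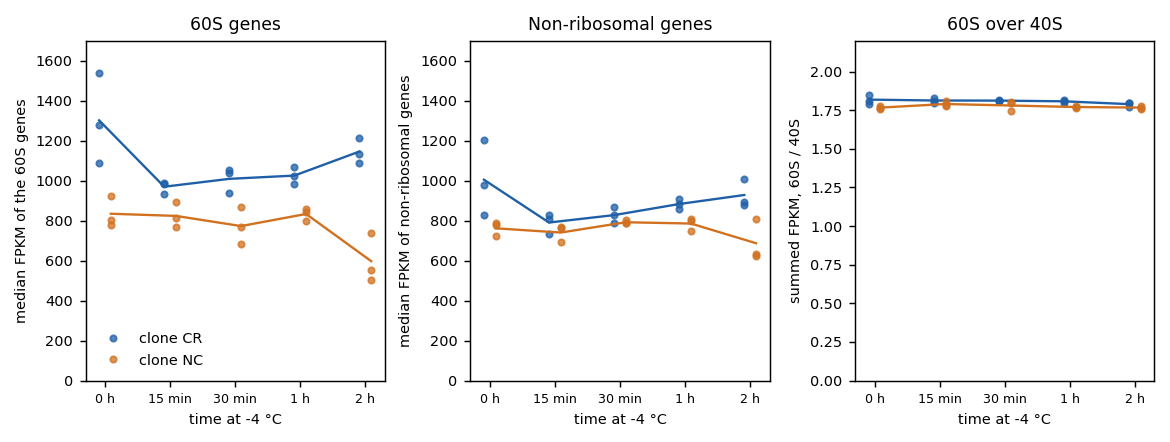
Library medians of FPKM for the 60S genes (left panel) and for the 73 non-ribosomal genes (middle panel), and the ratio of summed 60S to summed 40S FPKM (right panel), by time at -4 °C; points are libraries, CR left of NC at each time, and lines join the group means. The 60S medians of CR (935 to 1538) lie above those of NC (504 to 922), while the 60S to 40S ratio stays between 1.75 and 1.85 in all 30 libraries.

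The non-ribosomal genes of the table moved in part with the 60S genes. Their median FPKM within a library was 735 to 1206 in CR and 624 to 810 in NC. The ratio of the 60S median to the non-ribosomal median was 1.12 to 1.31 in CR and 0.807 to 1.17 in NC, so the ranges overlapped when all times were pooled. Within a time, all CR libraries lay above all NC libraries in this ratio, except at 1 h. At 1 h the lowest CR library was at 1.12 and the highest NC library at 1.15. This clone difference of the ratio was not tested. The clone average shifted the library medians by 0.38 over all genes, by 0.23 over non-ribosomal genes and by 0.50 over 60S genes. After each library was centred on its non-ribosomal median, 37 of the 43 members were higher in CR and 1 was lower, the chromosome 8 copy of L10, where 62.9% of all genes were higher and 16.1% lower. After centring on the median of all genes, of which the 60S genes make up a large share, 29 members were higher and 5 lower (41.3% and 28% of all genes).

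Among the stalk genes P3-1 showed the largest clone difference of all 43 members. P3-1 (PaF106G0100000946.01, chromosome 1, 6039533 to 6040627) had 1929.9, 1227 and 1444 FPKM in CR at 0 h, against 719, 601 and 528 FPKM in NC at 0 h. At 2 h it had 1485, 1378 and 1215 FPKM in CR, against 637, 361 and 377 FPKM in NC. The clones did not overlap at either time. The 15 CR libraries ranged over 823 to 1929.9 FPKM (median 1221) and the 15 NC libraries over 361 to 945 FPKM (median 654), and the averaged difference was 0.91 ± 0.09 on the log2 scale (SE, limma, adjusted p = 3.94e-10).

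The other acidic proteins differed less. P1 (PaF106G0200009324.01, chromosome 2, 20085719 to 20086745) had 2042, 1336 and 1403 FPKM in CR at 0 h, against 937, 818 and 787 FPKM in NC at 0 h. P2 (PaF106G0700027764.01, chromosome 7, 13023012 to 13024573) had 2870.4, 1777 and 2029 FPKM in CR at 0 h, against 1292, 1148 and 1062 FPKM in NC at 0 h. For both genes the lowest CR value at 0 h lay above the highest NC value. Both gave an averaged clone difference of 0.61 on the log2 scale, with SE 0.07 (limma adjusted p = 1.55e-09 for P1 and 1.76e-08 for P2). P0, the anchor of the stalk (PaF106G0100002032.01, chromosome 1, 13563377 to 13565357), had 1145, 973 and 1051 FPKM in CR at 0 h, against 921, 849 and 807 FPKM in NC at 0 h. Its averaged difference of 0.43 ± 0.05 (limma adjusted p = 2.47e-09) was below the member median of 0.53. The stalk genes thus spanned a clone difference of 1.35-fold for P0, 1.52-fold for P1 and P2, and 1.88-fold for P3-1, on the scale of FPKM + 1.

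Of the core genes, L39, L38 and L23A differed most between the clones. L39, a very small protein lining the exit tunnel (PaF106G0700026047.01, chromosome 7, 21724635 to 21725225), had 685 to 1637 FPKM in the 15 CR libraries, with a median of 1078, and 410.1 to 647 FPKM in the 15 NC libraries, with a median of 579. All CR libraries were above all NC libraries, and the averaged difference was 0.89 ± 0.07 on the log2 scale (SE, limma, adjusted p = 2.56e-12). L38, known from mouse for its part in the selective translation of homeobox mRNAs (PaF106G0100002305.01, chromosome 1, 16008809 to 16010893), had 838 to 1587 FPKM in CR and 402 to 739 FPKM in NC. The clones did not overlap, and the difference was 0.87 ± 0.06 (limma adjusted p = 5.61e-13). L23A on chromosome 6, a protein at the mouth of the exit tunnel (PaF106G0600022381.01, 5586126 to 5588333), had 742 to 1090.3 FPKM in CR and 312 to 570 FPKM in NC, again with no overlap, and a difference of 0.85 ± 0.05 (limma adjusted p = 6.9e-14). Every NC value of L23A lay below 594 FPKM, the lowest gene mean of the table. L23A was thus in the table only through its CR values, and its p-value does not account for this. The NC median of L39 also lay below 594 FPKM.

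At the other end, the chromosome 8 copy of L10 was the 1 member not called on average. L10 joins the subunit in a late step of its maturation, as known from yeast. This copy (PaF106G0800031311.01, chromosome 8, 13589898 to 13591105) had 579 to 830.4 FPKM in CR, with a median of 684, and 404 to 901 FPKM in NC, with a median of 722. The clones overlapped, and the averaged difference was -0.05 ± 0.07 (limma adjusted p = 0.48). Centred on non-ribosomal genes it was lower in CR, by -0.28 ± 0.05 (limma adjusted p = 1.64e-05).

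Small differences were also found for L5-2, L19-3 and L3. L5-2, which carries the 5S ribosomal RNA into the subunit (PaF106G0100000482.01, chromosome 1, 2946680 to 2947913), differed by 0.23 ± 0.09 (limma adjusted p = 0.0162). L19-3 differed by 0.23 ± 0.07 (limma adjusted p = 0.00326), with 1579 to 3493 FPKM in CR and 1386 to 2391 FPKM in NC. L3, an early assembling protein close to the catalytic centre (PaF106G0800032432.01, chromosome 8, 3735539 to 3738558), had 1021, 923 and 997 FPKM in CR at 0 h, against 1022, 939 and 887 FPKM in NC at 0 h. At 0 h the clones overlapped for L3, and its averaged difference was 0.28 ± 0.06 (limma adjusted p = 9.59e-05). The direction of these 3 differences turned with the scaling: centred on the median of all genes they were -0.15 for L5-2, -0.14 for L19-3 and -0.10 for L3 (limma adjusted p = 0.0407, 0.00218 and 0.0309).

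The members thus did not differ by the same amount. When each library was centred on the median of its 60S genes, 19 members were higher and 13 lower in CR (limma, adjusted p under 0.05), where 24.5% of all genes were higher and 46.9% lower. Relative to that median P3-1 was higher by 0.41 ± 0.06, L39 by 0.39 ± 0.04, L38 by 0.37 ± 0.03 and L23A by 0.35 ± 0.02. The chromosome 8 copy of L10 was at -0.55 ± 0.03, L5-2 at -0.27 ± 0.06, L19-3 at -0.27 ± 0.04 and L3 at -0.22 ± 0.03. P1 and P2 lay close to the 60S median, at 0.10 ± 0.04 and 0.11 ± 0.03, and P0 just below it, at -0.07 ± 0.03, each past the threshold (limma adjusted p = 0.013, 0.00891 and 0.0209).

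In CR flowers, 60S transcripts were lower after 15 min at -4 °C than at 0 h, as were most genes of the table. The library medians of the 60S genes were 985, 935 and 989 FPKM at 15 min, against 1538, 1086 and 1281 FPKM at 0 h. At 15 min 29 of 43 members were lower and 0 higher, with a median change of -0.43 (limma, adjusted p under 0.05), while 60.1% of all genes were called lower and the median change of all genes was -0.39. At 30 min 18 members were lower (median change -0.32, with 33.6% of all genes called lower). At 1 h 4 were lower (median change -0.29, 6.29% called), and at 2 h limma called 0 members and 0% of all genes, with 0 members at an unadjusted p under 0.05 and a median change of -0.12. The 4 members lower at 1 h were L29-1 (-0.46), L34 (-0.45), the chromosome 2 copy of L22-2 (-0.44) and L32-1 (-0.43), named after their values were seen.

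These counts depended on replicate 1 of CR at 0 h, the library with the highest 60S levels. Without it 7 members were lower at 15 min, 0 at 30 min and 0 at 1 h by limma. Without replicate 2 of CR at 0 h 37 were lower at 30 min and 27 at 1 h, without replicate 3 of CR at 0 h 1 was lower at 1 h, and without replicate 1 of CR at 30 min 1 was lower at 30 min. Leaving out any of the 3 CR libraries at 1 h gave 0 calls at 1 h. The shares of all genes called in these fits are not given, so whether the drops were particular to 60S genes is not shown. Relative to non-ribosomal genes 9 members were lower at 15 min and 0 were higher (13.3% and 5.59% of all genes). Relative to all genes 10 members were lower and 4 higher (17.5% and 13.3% of all genes). The summed level of green-tissue genes was also lower at 15 min, with 10289, 8357 and 9294 FPKM, against 16306, 10479 and 12983 FPKM in CR at 0 h.

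L39 showed the largest fall in CR at 15 min. It had 841, 742 and 794 FPKM at 15 min, against 1637, 1117 and 1257 FPKM at 0 h, so all 3 libraries at 15 min were below all 3 at 0 h. Its change was -0.74 ± 0.15 (SE, limma, adjusted p = 0.0016). L36-1, a core protein, had 1534, 1002 and 1504 FPKM at 15 min, against 2774, 1849 and 1979 FPKM at 0 h, a change of -0.71 ± 0.21 (limma adjusted p = 0.00675) with no overlap. Of the stalk genes, P3-1, P1 and P2 fell by a similar amount, by 0.65, 0.64 and 0.63 on the log2 scale (limma adjusted p = 0.00925, 0.00232 and 0.00421), whereas P0 fell less. P1 had 1056, 939 and 1011 FPKM at 15 min, all below its values at 0 h.

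P0, L3, L13a-4 and L7-2 moved least in CR at 15 min. P0 had 930.4, 935 and 937 FPKM at 15 min, against 1145, 973 and 1051 FPKM at 0 h, a change of -0.17 ± 0.11 (limma adjusted p = 0.15), although the 2 groups did not overlap. L3 had 954, 860.4 and 1050.2 FPKM at 15 min, against 1021, 923 and 997 FPKM at 0 h, with overlap and a change of -0.04 ± 0.13 (limma adjusted p = 0.796). The changes of L13a-4 and L7-2, core proteins of the subunit, were -0.14 and -0.19 (limma adjusted p = 0.349 and 0.162). Relative to the 60S median of each library, L39, P1 and P2 were lower at 15 min (-0.33, -0.23 and -0.22) and 8 members were higher, among them L3 (0.37), L13a-4 (0.27) and P0 (0.24), where 5.59% of all genes were lower and 19.6% higher. The direction for L3, L13a-4, P0 and L7-2 depended on the scaling: centred on the median of all genes their changes were 0.32, 0.22, 0.19 and 0.17, of which the first 3 passed the threshold (limma adjusted p = 0.0129, 0.0448 and 0.0379), and 17 of 43 members then had a positive change.

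Without replicate 1 of CR at 0 h, L39 and P1 were still called lower in CR at 15 min (-0.58 and -0.45, limma adjusted p = 0.043 and 0.0461). L36-1, P3-1 and P2 were then at -0.53, -0.47 and -0.43 and missed the threshold (limma adjusted p = 0.0954, 0.111 and 0.0687). So did the chromosome 5 copy of L37a, L23A and both copies of L26-1 and L22-2, at -0.32, -0.16, -0.48 and -0.46, and -0.27 and -0.36.

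In NC flowers, 60S transcripts were lower at 2 h, as were most genes of the table. In the values as deposited no member was called at earlier times. The library medians of the 60S genes were 736, 504 and 552 FPKM at 2 h, against 922, 803 and 779 FPKM at 0 h, and all 3 libraries at 2 h were below all 3 at 0 h. At 2 h 33 of 43 members were lower and 0 higher, with a median change of -0.40 (limma, adjusted p under 0.05), while 62.9% of all genes were called lower and the median change of all genes was -0.39. Limma called 0 members at 15 min, 30 min and 1 h, where 2.1%, 0% and 0% of all genes were called and the median changes of the members were 0.11, 0.00 and 0.05. At an unadjusted p under 0.05 limma gave 1 member at 15 min (L35, 0.26), 4 at 30 min (P0, L3, the chromosome 2 copy of L23a and L7-2, all negative) and 0 at 1 h. Centred on the median of all genes, limma called 6 members higher and 1 lower at 15 min (9.09% and 5.59% of all genes) and 2 higher and 5 lower at 30 min (6.29% and 8.39%).

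The count at 2 h in NC was 14 without replicate 2 at 2 h, 18 without replicate 3 at 2 h and 14 without replicate 1 at 0 h. The shares of all genes called without these libraries are not given. After centring on non-ribosomal genes 27 members were lower at 2 h and 0 higher (52.4% and 10.5% of all genes). After centring on all genes 11 members were lower and 1 higher (26.6% and 14.7% of all genes). The library medians shifted by -0.50 for 60S genes, by -0.32 for all genes and by -0.16 for non-ribosomal genes. The ratio of the 60S median to the non-ribosomal median was 0.912, 0.807 and 0.875 in NC at 2 h, against 1.17, 1.03 and 1.08 in NC at 0 h. Green-tissue genes summed to 8433, 8062 and 5928 FPKM at 2 h, against 10890, 12148 and 10015 FPKM at 0 h, and ART3 had 2339.95, 1785 and 946 FPKM at 2 h, against 997, 1227 and 1305 FPKM at 0 h. Their part in the fall of the 60S genes was not tested.

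The members that fell most in NC at 2 h were L5-2, L3, L13a-4 and the chromosome 8 copy of L10. L5-2 had 649, 409 and 402 FPKM at 2 h, against 895, 771 and 721 FPKM at 0 h, with no overlap and a change of -0.74 ± 0.20 (SE, limma, adjusted p = 0.0025). L3 had 734, 484 and 548 FPKM at 2 h, against 1022, 939 and 887 FPKM at 0 h, a change of -0.71 ± 0.13 (limma adjusted p = 0.00015) with no overlap. L13a-4 changed by -0.64 and the chromosome 8 copy of L10 by -0.61 (limma adjusted p = 0.000425 and 0.00139).

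Among the stalk genes in NC at 2 h, P0 fell most. P0 had 681, 484 and 561 FPKM at 2 h, against 921, 849 and 807 FPKM at 0 h, with no overlap and a change of -0.59 ± 0.11 (limma adjusted p = 9.92e-05). P3-1 changed by -0.46 ± 0.20 and P2 by -0.42 ± 0.17 (limma adjusted p = 0.0447 and 0.0301). P1 had 864, 588 and 622 FPKM at 2 h, against 937, 818 and 787 FPKM at 0 h, with overlap and a change of -0.31 ± 0.15 that did not pass the threshold (limma adjusted p = 0.0578). The 10 members that were not called at 2 h included the chromosome 2 copy of L37a (-0.09), L34 (-0.17), L14-1 (-0.19) and L39 (-0.19). The direction of all 4 turned with the scaling: centred on all genes their changes were 0.23, 0.15, 0.13 and 0.13, of which that of the L37a copy passed the threshold (limma adjusted p = 0.0104), and 11 of 43 members then had a positive change. Without replicate 2 of NC at 2 h, P3-1 and P2 were at -0.32 and -0.28 and missed the threshold (limma adjusted p = 0.242 and 0.207). Without replicate 3 they were at -0.35 and -0.33 and missed it too (limma adjusted p = 0.183 and 0.124), whereas P0 was called lower without the one or the other library (-0.47 and -0.58). The chromosome 5 copy of L37a, the chromosome 3 copy of L26-1, L23A and the chromosome 8 copy of L22-2 also missed the threshold without replicate 2 or without replicate 3, and the chromosome 6 copy of L10 missed it without replicate 3.

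**Figure D3:**
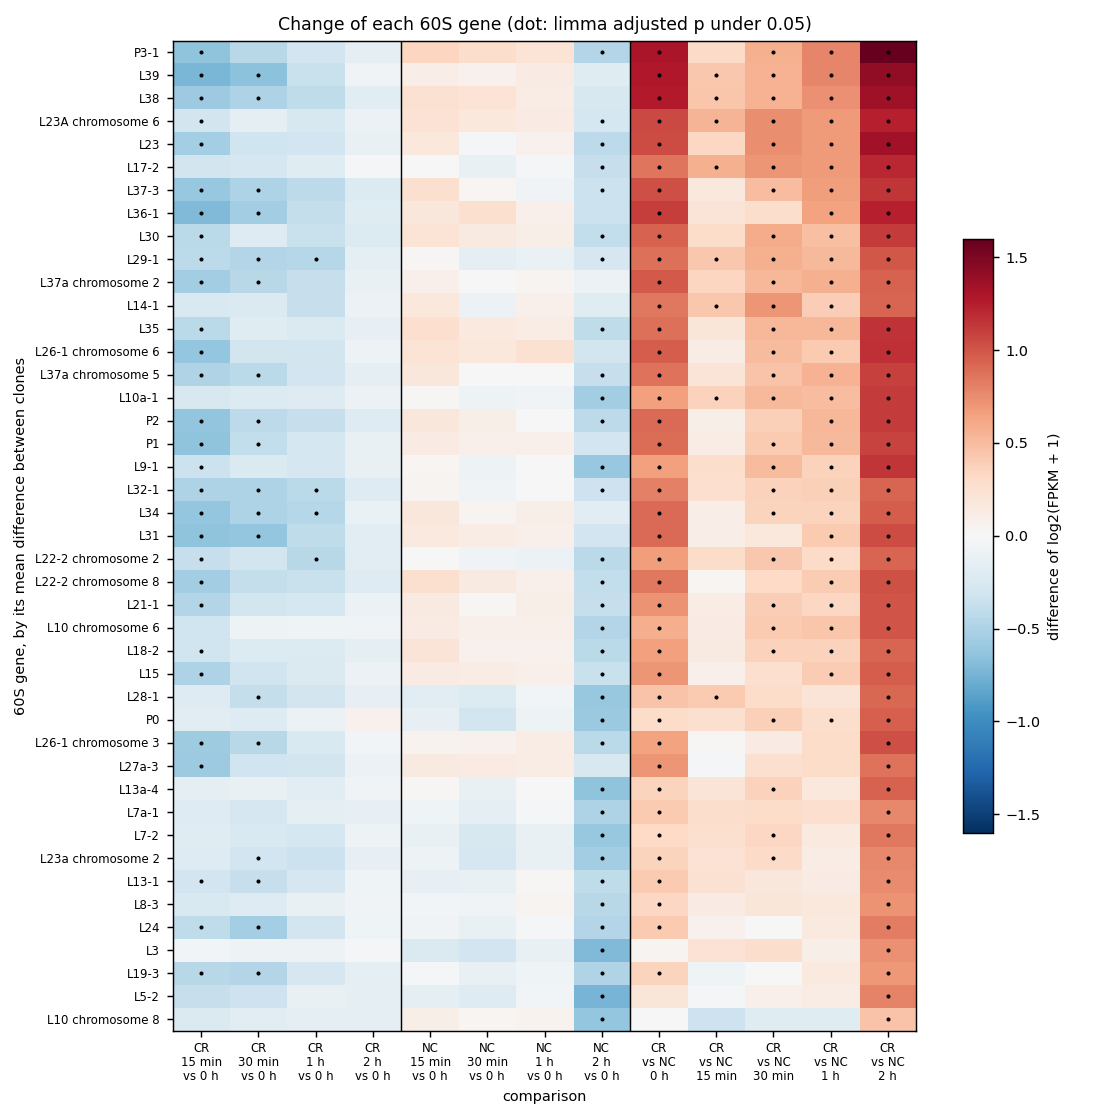
Differences of log2(FPKM + 1) for each 60S gene (vertical axis, ordered by the averaged clone difference) in 13 comparisons: each cold time against 0 h in CR, then in NC, then CR against NC at each time; a dot marks a limma adjusted p under 0.05. Most falls past the threshold lie at 15 and 30 min in CR (29 and 18 genes) and at 2 h in NC (33 genes), beside 60.1%, 33.6% and 62.9% of all genes. CR lies above NC past the threshold in 40, 8, 27, 29 and 43 genes at 0 h, 15 min, 30 min, 1 h and 2 h, beside 70.6%, 11.2%, 39.9%, 41.3% and 84.6% of all genes.

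The change over time differed between the clones for 41 of 43 members (limma F test of the clone by time interaction, adjusted p under 0.05), where 78.3% of all genes were called. Centred on the median of all genes the count was 21 (49% of all genes), and relative to the 60S median it was 16 (42%). The 2 members that missed the threshold were L7a-1 (adjusted p = 0.0523) and L5-2 (adjusted p = 0.0604). The lowest adjusted p-values belonged to L38 (0.0013), L35 (0.00146) and L39 (0.00173). L38 changed by -0.58, -0.50, -0.41 and -0.18 at 15 min, 30 min, 1 h and 2 h in CR, and by 0.24, 0.22, 0.12 and -0.26 at the same times in NC (SE 0.13 each). L35, a protein at the mouth of the exit tunnel, changed by -0.43, -0.20, -0.24 and -0.13 in CR and by 0.26, 0.15, 0.12 and -0.40 in NC (SE 0.13 each). In both genes the lowest point was at 15 min in CR and at 2 h in NC. Without the libraries at 2 h the count of members with an interaction was 17, and the share of all genes is not given.

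Gene length moved with these changes. The lengths in the deposited table were 345 to 1617 bases for the 60S genes, with a median of 757, against medians of 806 for 40S genes and 1109 for non-ribosomal genes. The shortest was the chromosome 5 copy of L37a and the longest L3. The length equalled the whole genomic span, with no intron, in 4 members (L5-2, L27a-3 and both copies of L26-1), which were named after their values were seen. Across the 43 members, Spearman's rho between length and the averaged clone difference was -0.56, and across the 100 other genes it was -0.50. For CR at 15 min against 0 h rho was 0.54 across members and 0.65 across other genes, and for NC at 2 h against 0 h it was -0.56 and -0.27. With level itself rho was -0.23 across members. All genes share the same libraries, so these values are descriptions.

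The 21 members shorter than the median had a median clone difference of 0.66, and the 21 longer ones 0.43. In CR at 15 min the shorter members had a median change of -0.56 with 19 called, and the longer ones -0.31 with 9 called. In NC at 2 h the order was the other way, with -0.34 and 13 called among the shorter members and -0.47 and 20 called among the longer ones. When a straight-line trend with length was removed in each library before centring on the 60S median, 30 members still departed from it, 15 in each direction. The share of all genes is not given for this fit. The order of members changed: the highest were L17-2 (0.31), L23 (0.29) and L10a-1 (0.27), named after their values were seen. The lowest were the chromosome 8 copy of L10 and L19-3 (-0.39). P3-1 was then at 0.18 ± 0.05, L38 at 0.26 ± 0.03, L23A at 0.24 ± 0.02 and the chromosome 8 copy of L10 at -0.55 ± 0.03. L3 was at 0.01 ± 0.02. P2 at -0.09 ± 0.03 and P0 at 0.06 ± 0.02 were opposite in sign to their values without that step, and both passed the threshold (limma adjusted p = 0.012 and 0.021). P1 was at 0.03 ± 0.03 and missed it (limma adjusted p = 0.521), and L39 was at 0.11 ± 0.03. What lies behind the relation with length was not tested.

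**Figure D4:**
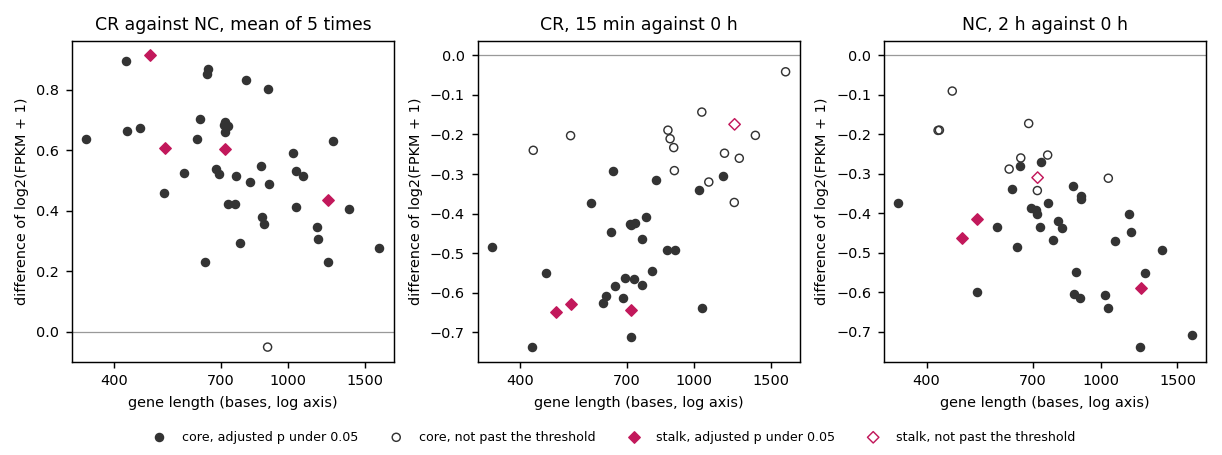
Gene length in bases, on a log axis, against the change on the log2 scale for the 60S genes (stalk genes marked) in the averaged clone comparison, in CR at 15 min against 0 h and in NC at 2 h against 0 h. Shorter genes lie higher in the clone comparison (rho -0.56) and lower in CR at 15 min (rho 0.54), and longer genes lie lower in NC at 2 h (rho -0.56).

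Same-name copies were compared as ratios within a library, which do not depend on how the library was scaled. Of the 5 pairs, 3 differed between the clones in a two-sided permutation test of clone labels within time (100000 resamples, Benjamini-Hochberg over 5 pairs). The ratio of the chromosome 6 copy to the chromosome 8 copy of L10 was 1.25 to 1.55 in the 15 CR libraries, with a geometric mean of 1.44, and 0.922 to 1.14 in the 15 NC libraries, with a geometric mean of 0.974. No CR library overlapped with an NC library, CR was above NC at 5 of 5 times, and the difference of mean log2 ratios was 0.57 (permutation p = 1e-05, the smallest these resamples can give, adjusted p = 2.5e-05). The chromosome 6 copy (PaF106G0600021832.01, 2714253 to 2715652) had 784 to 1194 FPKM in CR and 426 to 872 FPKM in NC. Its averaged clone difference was 0.51 ± 0.07 (limma adjusted p = 5.21e-08), against -0.05 for the chromosome 8 copy.

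The pair L23a on chromosome 2 (PaF106G0200009722.01, 22298583 to 22300228) and L23A on chromosome 6 also parted by clone. The ratio of L23a to L23A was 0.7498 to 0.997 in CR, with a geometric mean of 0.872, and 1.07 to 1.48 in NC, with a geometric mean of 1.23. In every CR library the chromosome 6 gene was the more abundant of the pair, and in every NC library it was the chromosome 2 gene. The difference of mean log2 ratios was -0.50 (permutation p = 1e-05, adjusted p = 2.5e-05). Every NC value of L23A lay below the lowest gene mean of the table, 594 FPKM. The pair was thus seen only because L23A was high in CR, and the p-value does not account for this. For L26-1, another protein near the tunnel exit, the ratio of the chromosome 6 to the chromosome 3 copy was 1.57 to 2.42 in CR and 1.37 to 1.68 in NC, with overlap and a difference of 0.21 (permutation adjusted p = 3.3e-05).

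The other 2 pairs gave no call. For L22-2 the ratio of the chromosome 2 to the chromosome 8 copy had a geometric mean of 1.40 in CR and 1.40 in NC (permutation adjusted p = 0.935). For L37a the ratio of the chromosome 5 to the chromosome 2 copy was 3.32 in CR and 3.41 in NC (permutation adjusted p = 0.525). Copies of 1 name can share reads, and a clone that differs from the reference sequence can lose or gain reads at 1 copy. Neither was tested, as no sequence of the genes was used here. The lengths of the 2 genes in a pair also differed, for example 1079 and 897 bases for L10 and 880 and 653 bases for L23a and L23A.

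**Figure D5:**
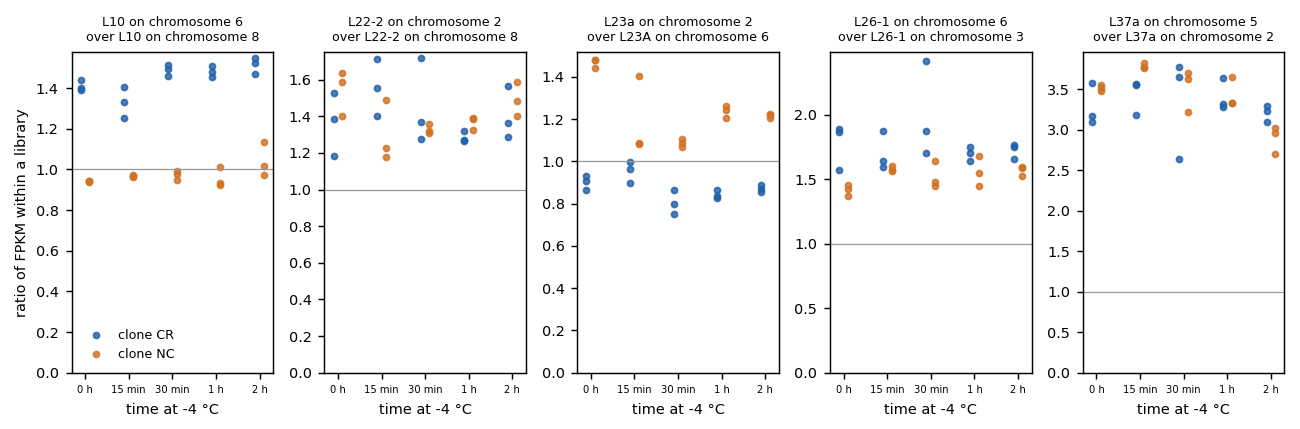
Within-library ratio of FPKM of 5 pairs of same-name copies by time at -4 °C; points are libraries, CR left of NC at each time, and the grey line marks equal FPKM. The L10 ratios of CR (1.25 to 1.55) lie above those of NC (0.922 to 1.14), the L23a to L23A ratios of CR (0.7498 to 0.997) lie below those of NC (1.07 to 1.48), and the L22-2 and L37a ratios overlap.

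The 27 genes of the small (40S) subunit in the table, which include a RACK1-type protein, were called by limma in the same comparisons. In the averaged clone comparison all 27 were higher in CR (median difference 0.49), beside 81.8% of all genes. In CR at 15 min 21 were lower (median change -0.41), beside 60.1% of all genes, and in NC at 2 h 22 were lower (-0.40), beside 62.9%. A difference between the 40S and 60S sets was not tested. The ratio of summed 60S to summed 40S FPKM was 1.77 to 1.85 in CR, with a median of 1.81. In NC it was 1.75 to 1.81, with a median of 1.78, so the clones overlapped when all times were pooled. Within a time, all CR libraries lay above all NC libraries at 0 h, 30 min and 1 h, and the clones overlapped at 15 min and 2 h. The group mean was higher in CR at each time. This clone difference of the ratio was not tested. Of 3 translation factors, 2 were higher in CR on average, 2 were lower in CR at 15 min and 1 was lower in NC at 2 h, beside 81.8%, 60.1% and 62.9% of all genes.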

How the data were processed

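RNA sequencing values of 30 libraries were used as FPKM, which the authors deposited in 1 table. Per the submitters' processing notes HISAT2, Picard, SAMtools 0.1.18 and GATK were used. The read counter, annotation, genome build and library-size scaling were not given in the sources used here. Coordinates are those of the deposited table. It held 143 complete genes, and 1 incomplete last entry was left out. FPKM times gene length was a whole multiple of 1 step per library, found from the values, for 4290 of 4290 values (within 1e-06 of a step). With 1 step read as 1 read, the 143 genes took 1731103 to 3544827 reads per library. The library-size divisor found in the same way was a whole number in 0 of 30 libraries, so it may not be a plain count of reads.

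A model of 10 group means was fitted to log2(FPKM + 1) of all 143 genes with limma 3.58.1 in R 4.3.3, with a mean-variance trend. Genes needed an FPKM of 1 or more in 3 or more libraries, which all met. P-values were two-sided, Benjamini-Hochberg adjusted over all genes, with a threshold of 0.05. Fits were repeated with libraries centred on the median of all, non-ribosomal or 60S genes. The test was checked on simulated data in which the noise of each gene was independent. Shifts shared by all genes of a library were not simulated, so that check does not cover them. Copy ratios were permuted in Python 3.11.15 with numpy 2.4.6.

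Named were the 4 highest and 4 lowest members of the averaged clone comparison, of CR at 15 min and of NC at 2 h, the stalk genes, same-name copies, extremes of level and length, and the 4 highest and 4 lowest relative to the 60S median. Members, lists and tests were chosen with earlier results of these data known. Alternatives covered scaling, pseudocount, filter, trend, length, a replicate block, separate fits and each library left out.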

Additional observations from a re-analysis of the deposited data

Results flagged for a closer look

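The clones differed in their change over time, by the limma F test of the interaction, for 41 of 43 members of the 60S set, beside 78.3% of all genes tested. Among them L38 had an adjusted p of 0.0013, L35 of 0.00146 and L39 of 0.00173. These members were flagged because the same contrast, cold against 0 h, went differently in CR and NC, as it did for most genes of the table. With each library left out in turn the count was 34 to 43, and without the libraries at 2 h it was 17, with no share of all genes given. After centring on the median of all genes it was 21 (48.8% of members), beside 49% of all genes. Relative to the 60S median 37.2% of members were called, beside 42% of all genes. After either centring the 60S set thus did not stand out from the table.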

How the results depend on the processing

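Counts of 60S genes called by limma held within 1.5 times under pseudocounts of 0.1 and 10, without the filter on low values and without the mean-variance trend. Centred on all genes the counts were 14 for CR at 15 min, 1 at 30 min and 0 at 1 h, 7, 7 and 12 for NC at 15 min, 30 min and 2 h, 18 for CR against NC at 1 h and 21 for the interaction. Centred on non-ribosomal genes they were 9 and 1 for CR at 15 and 30 min and 6 and 5 for NC at 15 and 30 min. With the length trend removed 2 were called for CR at 1 h, and with centring on all genes added (an alternative chosen after seeing the data) 2 for CR at 15 min and 13 for NC at 2 h. Fitting only the compared groups gave 18, 2 and 0 for CR at 15 min, 30 min and 1 h and 13 for NC at 2 h. An interaction without 2 h, also added after seeing the data, gave 17, and the clone average over 15 min, 30 min and 1 h only gave 37. The causes were not tested.

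Same-number libraries did not deviate together: all 3 correlations were over 0.1 in 1 of 13 comparisons (r between -0.45 and 0.67), and in 0 of 13 did every library correlate best with its own number. A replicate block gave 9 calls for CR at 1 h in place of 4 and changed no other count by over 1.5 times.

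With each library left out in turn, CR against NC gave 33 to 40 calls at 0 h, 1 to 8 at 15 min, 15 to 31 at 30 min, 14 to 28 at 1 h, 42 to 43 at 2 h and 42 to 42 on average, and the interaction gave 34 to 43. CR against its 0 h gave 7 to 36 at 15 min, 0 to 37 at 30 min, 0 to 27 at 1 h and 0 to 0 at 2 h. NC against its 0 h gave 0 to 0 at 15 min, 30 min and 1 h and 14 to 40 at 2 h. Shares of all genes are not given for fits with a library left out. At 15 min the clone count was 1, 5 and 5 without CR replicate 1, 2 and 3, and 4 and 1 without NC replicate 1 and 3. At 30 min it was 17 without CR replicate 2 and 15 without NC replicate 3, and at 1 h it was 14, 18, 17 and 15 without CR replicate 1, CR replicate 3, NC replicate 1 and NC replicate 3. Members departing from the 60S median numbered 32 to 34. The log2 copy ratios ranged over 0.56 to 0.58 for L10, -0.016 to 0.022 for L22-2, -0.51 to -0.48 for L23a over L23A, 0.18 to 0.23 for L26-1 and -0.06 to -0.01 for L37a.

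Of the genes named by rule, directions turned after centring on all genes for L5-2 (-0.15), L19-3 (-0.14), L3 (-0.10) and the chromosome 2 copy of L23a (-0.021) in the clone average. In CR at 15 min they turned for L3 (0.32), L13a-4 (0.22), P0 (0.19), L7-2 (0.17), the chromosome 2 copy of L23a (0.15), L10 on chromosome 8 (0.13) and 6 (0.044) and L23A (0.072). In NC at 2 h they turned for the chromosome 2 copy of L37a (0.23), L34 (0.15), L14-1 (0.13), L39 (0.13), L23A (0.043), L26-1 on chromosome 6 (0.035) and P1 (0.013). Centring on non-ribosomal genes turned the same 8 in CR at 15 min, to 0.29, 0.19, 0.16, 0.14, 0.12, 0.097, 0.010 and 0.039, and the L37a copy in NC at 2 h, to 0.067. Over all 43 members, 17 in CR at 15 min and 11 in NC at 2 h had a positive change and 8 a negative clone average after centring on all genes, and 16, 1 and 1 after centring on non-ribosomal genes. With each library left out, L3 in CR at 15 min ranged over -0.11 to 0.031. Counting error was at most 1.81%, with 1 step read as 1 read. The part of library depth in these values was not tested. The limits are 3 libraries per group of unstated origin, 1 clone of each kind, no control at another temperature, FPKM scaled per library by a divisor of unstated kind, and a table of abundant genes only.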
